A study of Mus musculus with 6 samples.

Results

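Chromatin accessibility was examined at the 582 ATAC-seq peaks, of 156733 consensus peaks in all, whose nearest transcription start site belongs to an olfactory or vomeronasal receptor gene. The members were chosen by gene name in the deposited annotation (names beginning with Olfr and a digit, Vmn1r, Vmn2r or Taar), with no use of their counts. They comprise 415 peaks of the Olfr family, 93 of Vmn1r, 56 of Vmn2r and 18 of Taar, and they belong to 303 genes. ATAC-seq uses the Tn5 transposase to insert sequencing adapters where DNA is accessible, so that counts in a peak report how open that stretch is. The libraries came from small-intestinal organoids, which are epithelium-only cultures maintained by their stem cells, grown from C57BL/6JRj mice and given no treatment. There were 3 aged libraries (mice of 20 to 22 months) and 3 young libraries (mice of 2 to 3 months). All cultures were kept for 3 to 5 weeks, and replicates 1, 2 and 3 of each age were taken at passage 4, 3 and 2. Each library was made from 100000 dissociated cells with 20 cycles of PCR. Whether different animals gave the libraries of one age is not stated in the labels, and p-values therefore describe the spread among these 6 libraries, which may be technical.

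Olfr genes encode the odorant receptors of the olfactory epithelium, Vmn1r and Vmn2r genes encode the pheromone receptors of the vomeronasal organ, and Taar genes encode trace amine-associated receptors, most of which also act in the nose. A mature olfactory neuron transcribes a single receptor gene from a single allele. The other receptor genes, which stand in long arrays of related copies, are held in compact heterochromatin. Some of these receptors have been described in the gut, among them Olfr78 and Olfr558 in enteroendocrine cells. The comparison of aged with young organoids asks whether these normally closed arrays were more or less accessible in epithelium from old animals.

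Most receptor genes had no start site in open chromatin, and their DNA differed in composition from that of other promoters. The receptor genes with a RefSeq promoter sequence numbered 1278, each given as a 300-base window on GRCm38.p6 from 250 bases before to 50 bases after the start. Their median GC content was 35.7%, against 52.7% over all 27025 promoters, and their median number of CpG dinucleotides was 1, against 7. The letters TATAAA, the core of a TATA box, stood on either strand in 39.8% of receptor promoters and 14.2% of all promoters. TAATTA, the palindromic core that homeodomain factors such as Lhx2 bind, stood in 16.6% and 5.31%. Overlaps between the motifs were not removed. These matches are descriptions of letters and not of bound sites. RefSeq models of 783 of 1110 protein-coding Olfr genes (70.5%) were at most 1000 bases long, which is about the length of a single coding exon, so many windows may precede the coding start and not the start of transcription.

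A RefSeq promoter window overlapped a receptor peak in 6 genes, and 3 of these windows are printed. They run 5′ to 3′ on the strand of the gene, with the bases inside the peak in capitals. The window of Vmn1r201 (chr13:22474368-22474667, plus strand) lies inside its peak over all 300 bases, that of Olfr713 (chr7:107035886-107036185, plus strand) over 161 bases, and that of Olfr224 (chr11:58570519-58570818, minus strand) over 124 bases. The Olfr713 peak ends upstream of the start, which therefore lies outside it.
Vmn1r201: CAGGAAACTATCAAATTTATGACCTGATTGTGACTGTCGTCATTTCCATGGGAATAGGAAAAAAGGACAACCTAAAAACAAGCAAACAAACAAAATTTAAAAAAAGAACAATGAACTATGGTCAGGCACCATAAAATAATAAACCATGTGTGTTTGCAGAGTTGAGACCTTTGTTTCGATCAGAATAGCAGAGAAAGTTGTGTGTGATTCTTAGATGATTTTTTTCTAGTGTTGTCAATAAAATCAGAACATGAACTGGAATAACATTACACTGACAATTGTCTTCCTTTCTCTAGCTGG
Olfr713: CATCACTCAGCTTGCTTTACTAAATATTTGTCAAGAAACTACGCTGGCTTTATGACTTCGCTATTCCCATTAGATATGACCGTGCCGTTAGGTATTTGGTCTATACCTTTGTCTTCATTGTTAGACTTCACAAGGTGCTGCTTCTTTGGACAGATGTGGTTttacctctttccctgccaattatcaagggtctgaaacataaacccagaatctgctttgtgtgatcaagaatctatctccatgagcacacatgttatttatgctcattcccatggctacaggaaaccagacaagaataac
Olfr224: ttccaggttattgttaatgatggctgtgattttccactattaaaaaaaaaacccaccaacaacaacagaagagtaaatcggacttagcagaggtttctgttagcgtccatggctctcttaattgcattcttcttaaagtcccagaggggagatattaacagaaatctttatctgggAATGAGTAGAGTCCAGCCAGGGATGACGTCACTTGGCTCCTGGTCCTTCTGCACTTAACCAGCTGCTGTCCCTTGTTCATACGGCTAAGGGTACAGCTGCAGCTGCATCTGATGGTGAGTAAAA
None of the 6 overlapping promoters held TATAAA or TAATTA, and they had 2 to 4 CpG dinucleotides each. The windows of Olfr622 (chr7:103640089-103640388, minus strand) and Vmn2r11 (chr5:109059403-109059702, minus strand) are printed because these genes had the called peaks with the smallest adjusted p in each direction. Neither window lies in a receptor peak, and the capitals mark TATAAA, which is read as TTTATA where it stands on the opposite strand.
Olfr622: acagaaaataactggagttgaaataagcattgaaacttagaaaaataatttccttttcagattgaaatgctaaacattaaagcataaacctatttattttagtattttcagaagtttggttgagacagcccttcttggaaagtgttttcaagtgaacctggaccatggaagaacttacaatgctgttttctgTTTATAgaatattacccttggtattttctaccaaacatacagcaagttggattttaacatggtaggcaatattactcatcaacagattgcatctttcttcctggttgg
Vmn2r11: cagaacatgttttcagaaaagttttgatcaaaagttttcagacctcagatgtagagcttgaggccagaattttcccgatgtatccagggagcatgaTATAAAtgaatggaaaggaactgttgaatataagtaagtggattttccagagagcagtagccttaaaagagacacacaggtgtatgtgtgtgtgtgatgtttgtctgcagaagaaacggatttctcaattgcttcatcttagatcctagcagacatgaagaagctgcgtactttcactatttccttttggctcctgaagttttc
The first base of the match stands at position -58 from the start of Olfr622 and at -154 from that of Vmn2r11. The sequences are from RefSeq.

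The libraries differed in depth. The aged libraries held 22363682, 21687816 and 26093521 counts in peaks and the young libraries 7278161, 25901670 and 19208483, so young replicate 1 was the shallowest. A receptor peak had a median of 22.0, 22.0 and 24.5 counts in the aged libraries and of 8.0, 28.0 and 18.0 in the young ones. The number of receptor peaks with no count was 1 in each aged library and 21, 0 and 5 in the young libraries. Of the intestinal epithelial marker genes, 11 of 13 were the nearest gene of a peak within 1 kb of their start. These peaks stood between 2.13 CPM at Chga and 73.3 CPM at Cdx2, with Epcam at 66.4 CPM, and Vil1 and Muc2 had none. Here and below, a peak counts only for the gene it is annotated to. A gene without such a peak may still have one that is annotated to a neighbouring start. Such peaks also stood at 2 of 4 stromal markers (Pdgfra at 19.3 and Col1a1 at 3.15 CPM), 1 of 3 endothelial (Kdr at 2.54 CPM), 2 of 4 immune (Cd79a and Lyz2, both under 0.5 CPM) and 2 of 4 glial and neuronal markers (Snap25 at 5.94 and Sox10 at 1.01 CPM). Of 7 olfactory neuron markers, Omp, Cnga2 and Stoml3, which are largely confined to these neurons, had no such peak, whereas Gng8, Gap43, Adcy3 and Gnal had 16.0, 7.59, 7.15 and 3.69 CPM. The vomeronasal markers Trpc2 and Gnao1 had none. No marker promoter passed the test for a difference between the ages, and the part of other cell types in the receptor peaks was not tested.

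Receptor genes were far less often accompanied by open chromatin than other genes. RefSeq lists 2089 receptor genes and pseudogenes. Of these, 299 (14.3%) were the nearest gene of a peak and 39 (1.87%) were the nearest gene of a peak within 1 kb of the start. Among protein-coding genes, the shares were 16.6% and 1.96% for the 1480 receptor genes and 73.7% and 47.4% for all 21900 genes. The Taar family stood apart, with 10 of its 16 genes (62.5%) nearest to a peak. A single peak was assigned to 175 receptor genes, and the most were assigned to Olfr412, with 23, and Olfr721-ps1, with 15. Receptor peaks were 436 times intergenic (74.9%, against 35.8% of all peaks), and 20 (3.44%, against 11.1%) were of the promoter class. Within 1 kb of the start lay 42 receptor peaks (7.22%, against 10.7%), and within 10 kb lay 333 (57.2%, against 42.1%). They were also weak and narrow. Their median level was 1.02 CPM, against 1.63 CPM for all peaks, their median width was 208 bp, against 270 bp, and their median level per kb of peak was 4.83 CPM, against 6.08 CPM. Among the families, Taar peaks had the highest median level, at 10.3 CPM per kb, and all 18 lay within 10 kb of a Taar start.

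The arrays themselves were sparsely accessible, and unequally so. RefSeq receptor genes formed 35 clusters of 10 or more genes, which hold 1904 genes in 61.5 Mb. These clusters contained 1209 peaks of any nearest gene, or 19.7 per Mb, against 57.6 per Mb across the genome, and 31 of the 35 lay below the genome's density. The largest, with 293 receptor genes at chr2:85330967-90401674, held 9 peaks, or 1.77 per Mb. The cluster of 99 genes at chr7:20101158-24055691 held 2 peaks, and those of 47 and 37 genes on chromosome 2 held none. At the other end, the cluster of 26 genes at chr11:58454915-59614225 held 160 peaks, or 138 per Mb, of which 36 were nearest a receptor gene. The Taar cluster (chr10:23920406-24109534) held 89.9 peaks per Mb. The clusters at chr13:21072349-23269501, which also holds histone genes, and at chr14:49894258-52495695 held 72.4 and 63.0. By chromosome, the 575 receptor genes of chromosome 7 had 99 peaks and the 104 of chromosome 11 had 98, whereas the 379 of chromosome 2 had 20. Receptor genes are often near-identical copies, and the sources used here do not give the handling of reads that match several places, so closed chromatin and reads lost to repeats cannot be told apart in these densities.

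**Figure D1:**
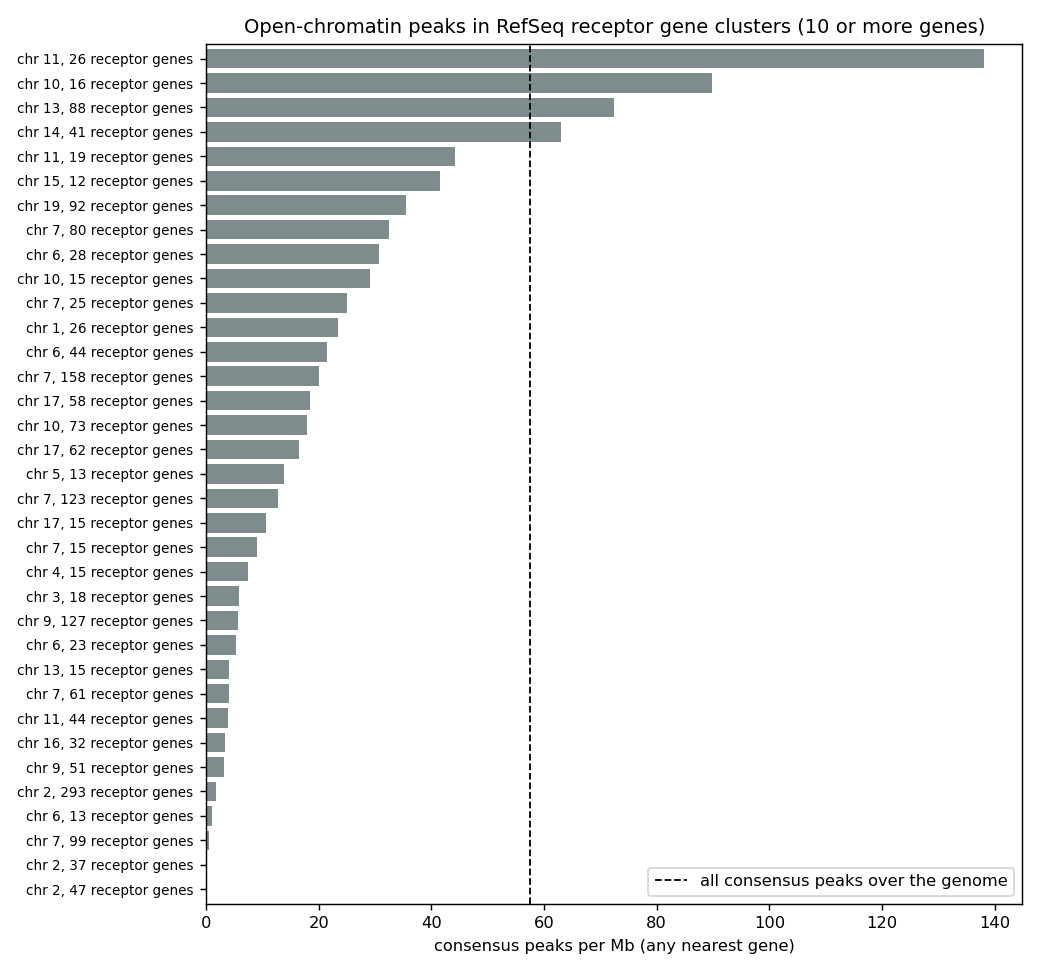
Bars give the number of peaks of any nearest gene per Mb in each of the 35 RefSeq clusters of 10 or more receptor genes, sorted by density, and the dashed line marks the genome's density of 57.6 peaks per Mb. The bars of 31 clusters end below the line, and the cluster of 293 genes on chromosome 2 lies near 0.

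The strongest receptor peaks owed their label to distance and not to a receptor start, and they were alike at both ages. The peak with the highest level, nearest Olfr1423 but 25.4 kb from its start (chr19:12010166-12012572, intergenic), had 55.6, 50.8 and 55.7 CPM in the aged and 55.9, 53.1 and 56.5 CPM in the young libraries. The peak nearest Olfr225 (chr11:59662129-59663003) lies 49.6 kb from it, in the promoter of Mprip, and had 45.4, 46.4 and 48.4 CPM in aged against 44.6, 42.2 and 42.4 CPM in young libraries. At this second peak every aged library stood above every young one, without passing the test (log2 fold change 0.12 ± 0.0818 SE, adjusted p = 0.692 in edgeR). The peaks nearest Vmn1r-ps92 (chr13:22050580-22051637), Olfr520 (chr7:99714651-99715260) and Olfr267 (chr4:58745595-58746116) averaged 39.7 ± 2.74, 38.3 ± 3.89 and 35.3 ± 1.62 CPM in aged and 42.4 ± 5.97, 35.6 ± 4.09 and 35.6 ± 0.991 CPM in young libraries (SD, n = 3 each). Their adjusted p-values in edgeR were 0.875, 0.788 and 0.981. In all, 60 receptor peaks lay in an annotated feature of another gene. Of the 27 peaks in the stretch at chr11:73993667-74476413, 20 did so, in introns of Rap1gap2, which encodes a GTPase-activating protein for Rap1, and Olfr412 is merely the gene with the nearest start.

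Near receptor starts the signal was mostly low. The 42 peaks within 1 kb of a start had a median level of 0.715 CPM. The promoter-class peak of highest level in the Vmn1r family was annotated at -0.064 kb from the start of Vmn1r4 (chr6:56923424-56924492, negative distances being upstream), but the same annotation places it in the promoter of Nt5c3, a pyrimidine nucleotidase, and the RefSeq promoter window of Vmn1r4 lies elsewhere (chr6:56956263-56956562). It had 30.2, 31.3 and 28.1 CPM in aged and 24.6, 29.8 and 25.8 CPM in young libraries, which overlap. The Mprip peak described above was the highest of this class in the Olfr family, and those of the other 2 families were lower. That of Taar6 (chr10:23986288-23986531) had 1.14, 0.878 and 1.36 CPM in aged and 1.26, 1.02 and 1.32 CPM in young libraries, also overlapping. The strongest peak within 1 kb of a start was another Taar peak, at the end of Taar9 (chr10:24108275-24108846), with 28.2, 26.6 and 29.9 CPM in aged and 28.2, 26.4 and 34.3 CPM in young libraries (edgeR adjusted p = 0.885). The promoter-class peak of Vmn2r-ps134 (chr17:23446596-23446697) had 0.182, 0.0924 and 0.194 CPM in aged and 1.12, 0.34 and 0.316 CPM in young libraries, from 2 to 9 counts each, and was too shallow to be tested. The peak over the Vmn1r201 start printed above averaged 2.03 CPM in aged and 2.96 CPM in young libraries (edgeR adjusted p = 0.436). The peak that ends upstream of the Olfr713 start averaged 2.86 CPM in aged and 3.12 CPM in young libraries (edgeR adjusted p = 0.977).

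Of the receptors reported in gut epithelium or sharing their locus, Olfr78, Olfr558 and Olfr56 were not the nearest gene of any peak. Olfr544, a receptor for the dicarboxylate azelaic acid, had 2 faint peaks. Its exon peak (chr7:102484872-102485226) had 0.5, 0.693 and 0.854 CPM in aged and 0.982, 0.492 and 0.633 CPM in young libraries, with no difference past the test (log2 fold change 0.13, edgeR adjusted p = 0.956, a fitted value whose sign is opposite to that of the difference in mean CPM). Its intron peak (chr7:102487535-102487894), 0.593 kb from the start, had 0.455, 0.323 and 0.699 CPM in aged and 0.14, 0.378 and 0.0527 CPM in young libraries and did not pass the filter on low counts. Young replicates 1 and 3 had a single count each there.

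The receptor peaks as a whole took a slightly smaller share of the counts in aged organoids. They held 0.185%, 0.182% and 0.180% of all counts in the aged libraries, a mean of 0.183% ± 0.00234 (SD, n = 3), and 0.192%, 0.187% and 0.194% in the young libraries, a mean of 0.191% ± 0.00411. Every aged library lay below every young one. On the scale of CPM with TMM-scaled library sizes, the sums were 1881, 1828 and 1827 in aged and 1965, 1827 and 1970 in young libraries, and there the lowest young library fell among the aged ones. By family the mean sums were 1373 ± 18.5 CPM in aged and 1433 ± 69.9 CPM in young libraries for Olfr, 261 ± 14.4 and 276 ± 7.59 for Vmn1r, 115 ± 4.17 and 110 ± 7.02 for Vmn2r, and 95.7 ± 1.80 and 101 ± 3.69 for Taar. Over all intergenic peaks, the class of most receptor peaks, the mean sums were also lower in aged libraries, at 253960 ± 4027 CPM against 259070 ± 10886 CPM in young ones. The log2 ratio of the mean sums, aged over young, was -0.029 for intergenic peaks and -0.058 for receptor peaks. These sums are descriptions without a test. In bulk libraries, a lower signal in all cells and a signal in fewer cells cannot be told apart.

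Peak by peak, most receptor peaks did not pass the test, and those that did were mainly lower in aged organoids. The filter on low counts kept 463 receptor peaks for testing and left out 119, which were neither higher nor lower by any test. A call was a p under 0.05 in edgeR's quasi-likelihood test after Benjamini-Hochberg adjustment over all 132055 tested peaks. Of the 463, 10 were called, 3 higher and 7 lower, which is 2.16%, against 1.13% of all tested peaks (0.619% higher and 0.51% lower) and 1.16% of tested intergenic peaks. With the replicate number as a block, since same-numbered aged and young libraries have the same passage, 17 were called, 3 higher and 14 lower, against 2.67% of all peaks (1.46% higher and 1.21% lower). DESeq2 called 9, 3 higher and 6 lower, against 0.734% of all peaks. The calls that the block added were all lower in aged libraries, and were peaks nearest Vmn1r1, Olfr1535, Olfr1441, Olfr65, Olfr16, Vmn1r87 and Vmn1r16. An unadjusted p under 0.05 was reached by 52 receptor peaks (11.2%), against 9.71% of all peaks, which is near the background and no result about the receptors.

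The fold changes leaned towards lower values in aged organoids by a small amount. Their median over the 463 peaks was -0.07 on the log2 scale, against -0.01 over all tested peaks, and 284 (61.3%) were negative, against 51.96%. Intergenic peaks, the class of most receptor peaks, leaned the same way over the genome, with a median of -0.04 and 56.4% negative. All 3 aged libraries lay below all 3 young ones at 45 receptor peaks (9.72%), against 7.09% of all peaks, and above them at 23 (4.97%), against 7.66%. Over all tested intergenic peaks these shares were 8.09% and 6.61%. By family the median was -0.07 for Olfr, -0.12 for Vmn1r, -0.10 for Vmn2r and -0.04 for Taar. All 7 lower calls were Olfr peaks. The higher calls were 2 Vmn2r peaks and 1 Olfr peak, and none of the 70 tested Vmn1r or 18 tested Taar peaks was called without the block. With the block 3 Vmn1r peaks were among the lower calls. Peaks 1 to 10 kb from a receptor start (232 tested peaks) held 8 of the 10 calls and had a median of -0.10. The share called among them was 3.45%, against 1.13% of all tested peaks. Of the 8 calls, 3 lie in a stretch of chromosome 7 and 3 in a stretch of chromosome 17, both described below. This share therefore counts neighbouring peaks as separate members. The median was -0.03 both within 1 kb of a start (27 tested peaks) and beyond 10 kb (204 tested peaks).

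**Figure D2:**
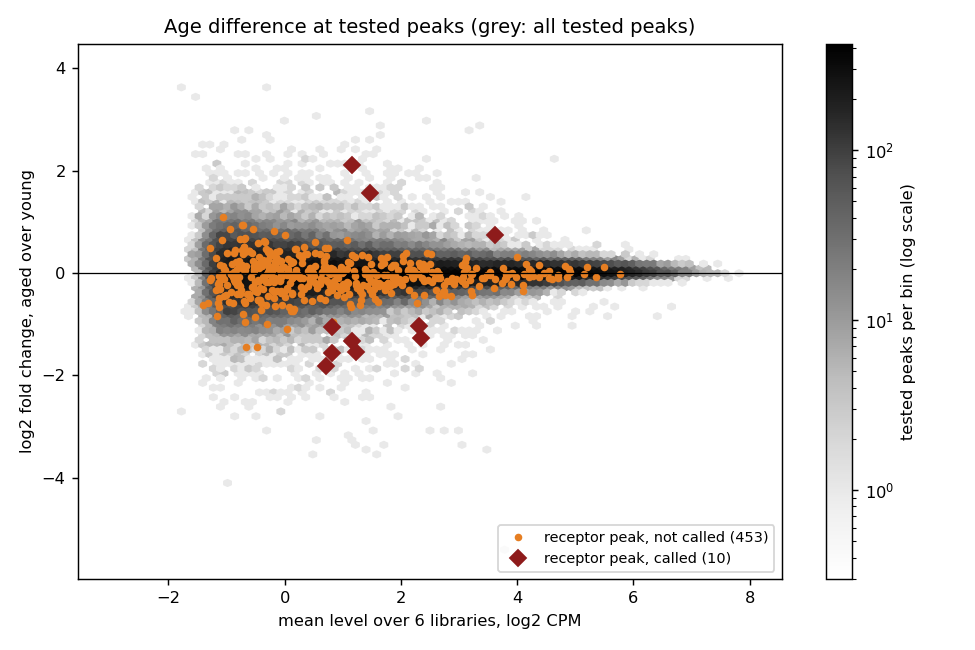
The log2 fold change of each tested peak, aged over young, plotted against its average level in log2 CPM, with all tested peaks as grey shading (a log colour scale of peak number per hexagon) and the receptor peaks as points, called ones marked. The receptor peaks spread around 0 at low levels, and 7 of the 10 called ones lie below 0.

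The 7 lower calls stood in 2 long receptor arrays, 4 on chromosome 7 and 3 on chromosome 17, and around most of them neighbouring peaks leaned the same way. On chromosome 7 they were nearest Olfr622 and Olfr608, odorant receptor genes of the large array that surrounds the β-globin locus. The peak 3.18 kb from Olfr622 (chr7:103636832-103637085) had 0.955, 0.832 and 0.815 CPM in aged against 2.81, 1.97 and 3.11 CPM in young libraries. All aged values lay below all young ones, with a log2 fold change of -1.56 ± 0.266 SE and an adjusted p of 0.000541 in edgeR. The wider peak on the other side of Olfr622 (chr7:103643733-103644862) had 3.23, 2.22 and 3.22 CPM in aged against 8.0, 4.65 and 9.07 CPM in young libraries (log2 fold change -1.28, edgeR adjusted p = 0.000699). The Olfr608 peak (chr7:103477154-103477581) had 0.409, 0.924 and 0.815 CPM in aged against 2.39, 1.66 and 3.64 CPM in young libraries. It had the largest fall among the receptor peaks (log2 fold change -1.81 ± 0.313 SE, edgeR adjusted p = 0.000721). None of the 3 aged libraries reached the lowest young library at any of these peaks. The first Olfr622 peak, with 18 to 59 counts per library, lost its call when all libraries were thinned to the depth of young replicate 1 (adjusted p = 0.309).

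Between Olfr608 and Olfr633, with the flanking peaks of Usp17lc and Gm25774 and the β-globin genes Hbb-bt and Hbb-y in the same stretch, 8 of 11 peaks were tested and all 8 had a negative fold change. These 8 include the 3 called peaks around which the stretch was drawn. The size was unequal along it. The strongest, nearest Olfr65 (chr7:103909976-103910860), had 13.7, 16.6 and 14.6 CPM in aged against 21.2, 19.1 and 17.7 CPM in young libraries, without overlap, and was called with the replicate block alone (log2 fold change -0.35, edgeR adjusted p = 0.167 without and 0.036 with the block). The Hbb-y peak was near 0, with a log2 fold change of -0.02. In a separate fit of counts summed over 1 Mb windows, the window of 103 to 104 Mb, in which receptor peaks hold 77.5% of the counts, had 28.2, 31.2 and 28.7 CPM in aged against 45.5, 41.0 and 48.1 CPM in young libraries. This was a log2 fold change of -0.60 ± 0.0942 SE (edgeR adjusted p = 0.00211), and the window holds the called peaks themselves.

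On chromosome 17 the called peaks were nearest Olfr109 and Olfr112, odorant receptor genes linked to the major histocompatibility complex. The Olfr109 peak at the end of the gene (chr17:37467488-37467818) had 2.09, 0.739 and 0.738 CPM in aged against 3.51, 2.84 and 4.06 CPM in young libraries (log2 fold change -1.54 ± 0.294 SE, adjusted p = 0.00378 in edgeR). The Olfr109 peak 5.64 kb from the start (chr17:37471600-37472089) had 1.73, 1.29 and 0.776 CPM in aged against 3.37, 2.84 and 3.32 CPM in young libraries (log2 fold change -1.32, edgeR adjusted p = 0.00216, and 0.0533 without aged replicate 3). Both separated the ages without overlap, and aged replicate 1 was the highest aged library at each. The Olfr112 peak (chr17:37558995-37559644) had 4.0, 2.82 and 2.95 CPM in aged against 6.04, 5.3 and 8.65 CPM in young libraries (log2 fold change -1.04, edgeR adjusted p = 0.00152). Between the Olfr109 and Olfr112 peaks stood a called peak that is no receptor peak, nearest H2-M2, a nonclassical class I gene (chr17:37487235-37487513), with 1.41, 0.693 and 0.854 CPM in aged against 3.23, 2.12 and 3.16 CPM in young libraries (log2 fold change -1.47, edgeR adjusted p = 0.00156).

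Along this stretch 15 of 17 tested peaks had a negative fold change and 4 were called. The 15 include these 4, of which 3 are the receptor peaks around which the stretch was drawn. The 9 tested peaks between Olfr94 and Olfr102 had log2 fold changes between -0.49 and 0.45 and none was called. Among them, the peak at H2-M3, a nonclassical class I gene that presents formylated peptides, had 15.3, 13.0 and 12.9 CPM in aged against 14.6, 13.8 and 14.3 CPM in young libraries, which overlap. The 1 Mb window of 37 to 38 Mb, with 34.2% of its counts in receptor peaks, had 90.3, 83.2 and 79.4 CPM in aged against 103, 101 and 109 CPM in young libraries (log2 fold change -0.30, edgeR adjusted p = 0.0141). That call was lost without aged replicate 3 (adjusted p = 0.125) and with all libraries thinned to the depth of young replicate 1 (adjusted p = 0.0988). These were the only called windows among the 41 that hold 5 or more receptor peaks, and 2.46% of all windows were called (0.615% higher and 1.84% lower). With the replicate block 8 of the 41 were called, 2 higher and 6 lower, against 12.7% of all windows (4.75% higher and 7.95% lower). The number of lower windows was 4 without young replicate 2 and 1 without aged replicate 3, both without the block. The share of all windows called was not computed for these fits.

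**Figure D3:**
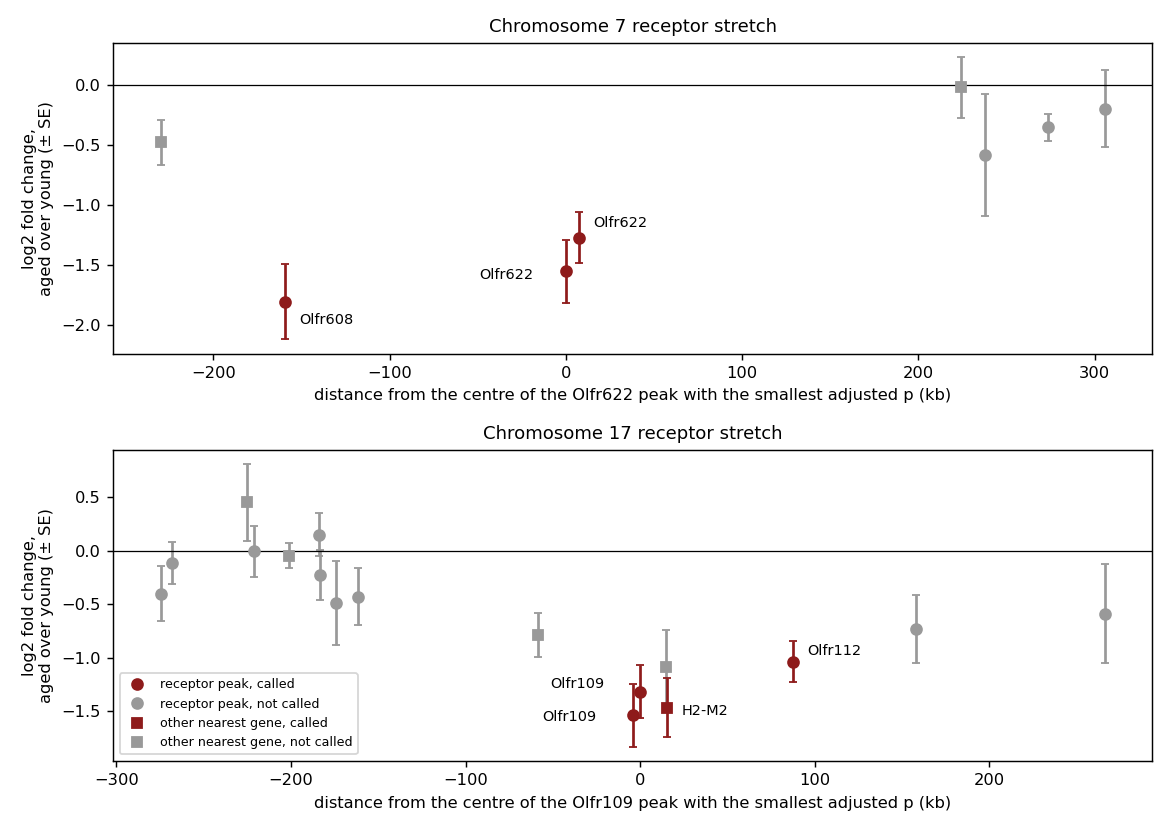
The log2 fold change of each tested peak, aged over young, with its SE, plotted against distance in kb from the Olfr622 peak with the smaller adjusted p on chromosome 7 (top) and from the Olfr109 peak with the smaller adjusted p on chromosome 17 (bottom). Circles are receptor peaks, squares are peaks of other genes and filled red marks are called. All 8 values on chromosome 7 and 15 of 17 on chromosome 17 are below 0, and these include the called peaks around which the stretches were drawn.

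The remaining lower call, farther along the same chromosome 7 array, was the single called peak at a receptor start. It covered the start of Olfr658 (chr7:104647239-104647428) and had 1.59, 0.924 and 0.932 CPM in aged against 2.39, 2.8 and 1.9 CPM in young libraries. The ages did not overlap, but the call was the weakest of the 10 (log2 fold change -1.06 ± 0.264 SE, edgeR adjusted p = 0.0334). It was lost in DESeq2 (adjusted p = 0.192), after thinning (0.295) and without aged replicate 2 or 3 or young replicate 1 or 2 (0.15, 0.25, 0.0712 and 0.213). Of its 10 tested neighbours within 250 kb, 3 had the same sign and none was called.

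The higher calls had no called neighbour within 250 kb. The strongest call of all, in an intron of the pheromone receptor gene Vmn2r11 (chr5:109055411-109056014), rested on 60, 76 and 111 counts in aged and 11, 19 and 12 counts in young libraries. These were 2.73, 3.51 and 4.31 CPM in aged against 1.54, 0.719 and 0.633 CPM in young libraries, a log2 fold change of 2.10 ± 0.277 SE (edgeR adjusted p = 8.98e-06). The Vmn2r67 peak (chr7:85157868-85158740) at -2.40 kb from the start of another pheromone receptor gene, had 6.05, 4.02 and 2.56 CPM in aged against 1.26, 1.85 and 0.897 CPM in young libraries. It passed the test (log2 fold change 1.57 ± 0.298 SE, edgeR adjusted p = 0.00525), but not without young replicate 1, the shallowest library (adjusted p = 0.0572). The peak nearest Olfr31 (chr14:14294391-14295097) lies at -33.4 kb from that gene and was the only called receptor peak above 10 CPM in the aged libraries, with 16.3, 16.3 and 13.7 CPM in aged against 9.97, 10.8 and 7.07 CPM in young libraries (log2 fold change 0.74 ± 0.141 SE, edgeR adjusted p = 0.00232). At all 3 peaks the aged libraries lay above the young ones. Within 250 kb, none of the 2 tested neighbours of the Vmn2r11 peak, the 3 of the Vmn2r67 peak or the 25 of the Olfr31 peak was called. Over the whole RefSeq array that holds Vmn2r67 (chr7:84810427-87037968), 2 of 7 tested peaks were called higher, the other one being nearest a gene that is no receptor gene.

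**Figure D4:**
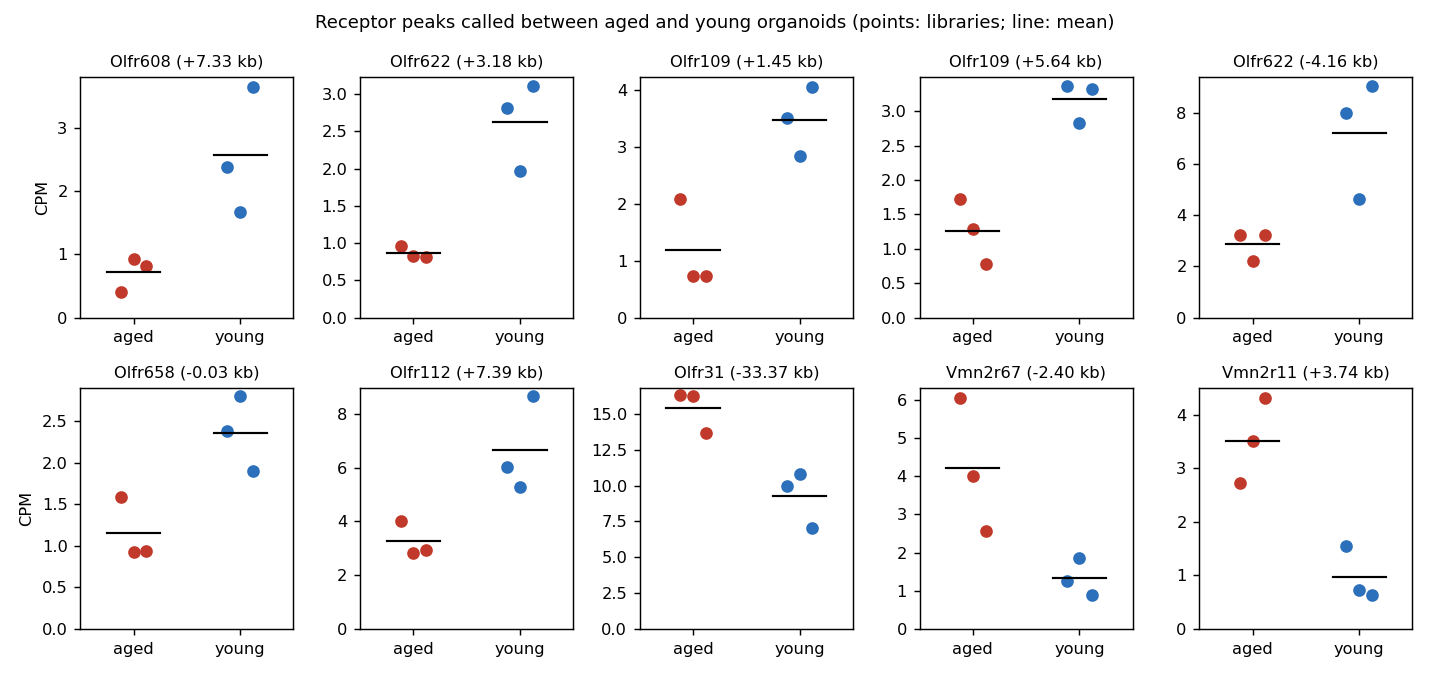
CPM in each library at the 10 called receptor peaks, aged libraries left and young libraries right in each panel, with a line at the mean of each group (n = 3), and the distance to the receptor start in the panel titles. The 3 aged points lie above the young ones at the Vmn2r11, Vmn2r67 and Olfr31 peaks and below them at the other 7.

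Summed over all peaks of a gene, 7 of the 8 receptor genes with a called peak passed the test, and Olfr658 did not (edgeR adjusted p = 0.0541 without and 0.0122 with the replicate block). Of 259 receptor genes tested, these 7 (2.70%) were called, against 1.59% of all genes (0.555% higher and 1.03% lower). Each of these 7 sums holds the called peaks themselves, so the gene calls repeat the peak calls and are no further support for them. Vmn2r11, Vmn2r67 and Olfr31 were higher in aged libraries and Olfr622, Olfr109, Olfr608 and Olfr112 were lower. The sum over both Olfr622 peaks averaged 3.76 ± 0.616 CPM in aged and 9.87 ± 2.90 CPM in young libraries (SD, n = 3 each; log2 fold change -1.36, edgeR adjusted p = 0.000905). The sum over both Olfr109 peaks averaged 2.46 ± 1.21 CPM in aged and 6.64 ± 0.879 CPM in young libraries (log2 fold change -1.44, edgeR adjusted p = 0.00392). The Olfr112 sum, which is its single peak, was not called without aged replicate 3 (adjusted p = 0.0531) or without young replicate 3 (0.0526), nor the Vmn2r67 sum without young replicate 1 (0.0734) or 3 (0.0844). With the replicate block 13 genes were called, 3 higher and 10 lower, against 3.38% of all genes (1.38% higher and 2.0% lower).

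Over whole clusters most medians were slightly negative. Receptor peaks less than 1 Mb apart formed 81 clusters, of which 17 had 10 or more peaks and held 369 peaks. The median log2 fold change was negative in 15 of the 17 and ran between -0.37 and 0.08. Over all tested intergenic peaks the median was also negative, at -0.04, with 56.4% of the values below 0. How often other groups of peaks of this size have a negative median was not computed, so 15 of 17 is no result about the receptors. The lowest median was that of the chromosome 17 cluster at chr17:37083398-38366783, whose 18 peaks summed to 32.0, 27.6 and 25.6 CPM in aged against 37.9, 33.1 and 44.0 CPM in young libraries. The chromosome 7 cluster at chr7:102472349-105182775, with 34 peaks, summed to 72.0, 81.7 and 70.7 CPM in aged against 91.5, 86.2 and 88.5 CPM in young libraries. In both the ages were separate, but these sums include the called peaks. With the called peaks left out, the aged and young sums overlapped in both clusters, so the separation rested on those peaks.

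Clusters with no called receptor peak also included some in which the aged sums lay lowest. The Taar cluster on chromosome 10 summed to 93.6, 96.6 and 96.9 CPM in aged against 99.2, 98.7 and 105 CPM in young libraries, the cluster at chr14:49860537-52352827 to 92.4, 84.4 and 88.0 CPM against 97.0, 96.3 and 95.8 CPM, and that at chr7:140173274-140676499 to 23.7, 24.5 and 24.3 CPM against 25.7, 26.6 and 28.2 CPM. In all, the sums of the aged libraries lay below all young ones in 5 of the 17 clusters and above them in 0. Among the 5, the chromosome 7 and chromosome 17 clusters that hold called peaks overlapped once these peaks were left out. How often the sums of other groups of peaks separate in this way was not computed. The cluster at chr11:58463584-59671530, with 48 peaks, averaged 139 ± 2.66 CPM in aged and 137 ± 5.91 CPM in young libraries. That at chr13:21158666-23270603, with 52 peaks of Vmn1r and Olfr genes, averaged 188 ± 10.5 CPM in aged and 207 ± 16.9 CPM in young libraries, with overlap.

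**Figure D5:**
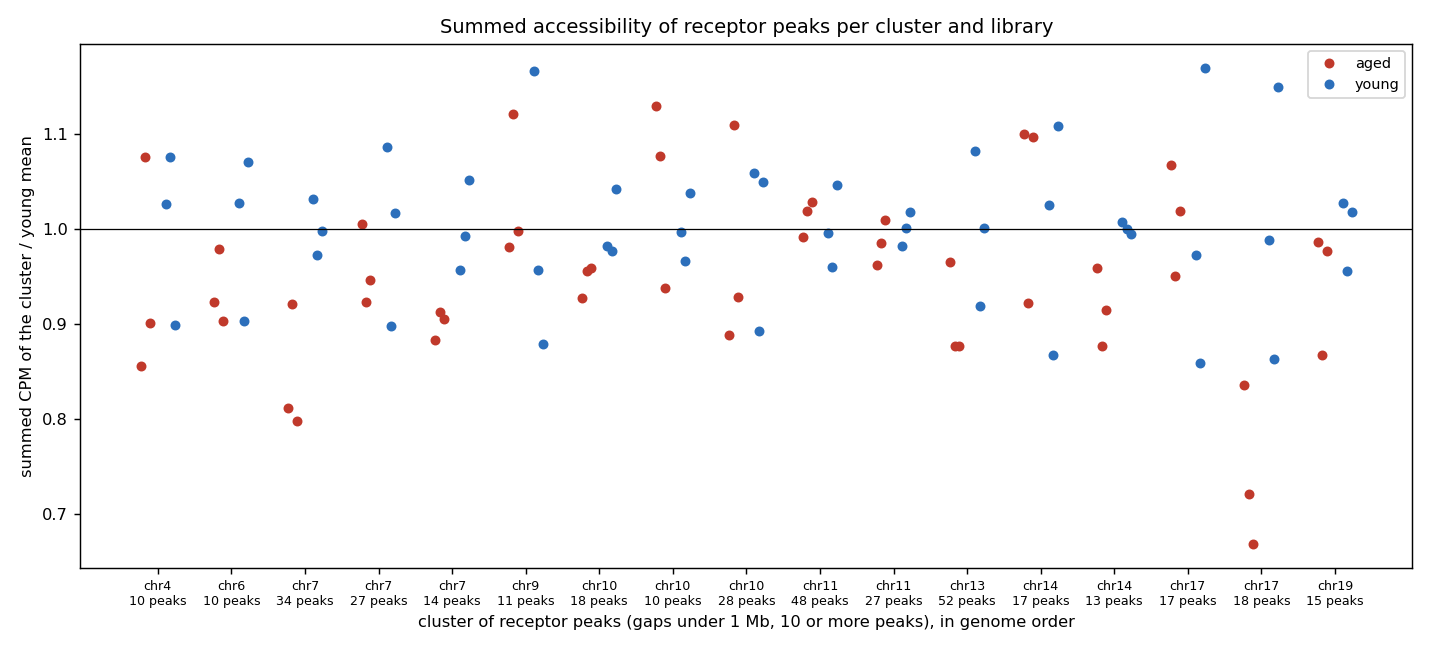
Summed CPM of the receptor peaks in each of the 17 clusters with 10 or more peaks, aged libraries beside young libraries, 1 point per library, relative to the mean of the young libraries. The 3 aged points lie below the 3 young ones in 5 clusters, among them those of chromosome 17 near 37 Mb and of the Taar genes, and lie above them in none. The sums include the called peaks, and without them the ages overlap in the chromosome 7 and chromosome 17 clusters that hold lower calls.

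The genes that serve receptors in their neurons had promoter peaks about as often as other genes, and none differed past the test. Of 49 genes of odorant and vomeronasal signalling, receptor trafficking, receptor choice, heterochromatin and neuronal lineage, 25 were the nearest gene of a peak within 1 kb of the start. This share is near the 47.4% of all protein-coding genes, counted by the same rule. Of these, 24 were tested and none was called in edgeR, while 3 had an unadjusted p under 0.05 (Emx2, Lbr and Ebf2), which is near the 9.71% of all tested peaks that did. Emx2, a homeodomain factor that olfactory neurons need for the expression of many receptors, had a log2 fold change of -1.18 (unadjusted p = 0.00655, edgeR adjusted p = 0.225) at a mean of 0.644 CPM. Lbr, the lamin B receptor that tethers heterochromatin to the nuclear envelope, had a log2 fold change of 0.23 (edgeR adjusted p = 0.235) at 65.7 CPM, and Ebf2, a partner of Lhx2 at receptor enhancers, one of -0.24 (edgeR adjusted p = 0.509) at 14.98 CPM. The promoters of Lhx2 and Ldb1, which bring receptor enhancers together in olfactory neurons, stood at 11.6 and 19.2 CPM, and that of Eif2ak3, the kinase of the feedback that stabilises receptor choice, at 109 CPM. By group, 6 of 13 odorant transduction genes, 3 of 7 trafficking genes, 8 of 11 choice factors, 5 of 10 heterochromatin enzymes, 1 of 5 vomeronasal transduction genes and 2 of 3 lineage genes had a promoter peak.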

How the data were processed

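ATAC-seq of 3 aged and 3 young libraries of mouse small-intestinal organoids was analysed from a deposited table of raw counts per consensus peak and the deposited annotation of these peaks (build GRCm38). The authors' tools, per the submitters' processing notes, included BWA 0.7.17-r1188, MACS2 2.2.7.1 and featureCounts 2.0.1, beside Trim Galore 0.6.4, Picard 2.23.1, SAMtools 1.10 and bedtools 2.29.2. The deposited counts are raw, per the file headers. The unit counted (reads or fragments), any shift for the Tn5 offset and the treatment of duplicates and of reads matching several places are not given in the sources used here. Of each peak, the deposited annotation gives the class and a signed distance to the nearest start, which is no score of signal, and its constant score column was not used. Starts differ by 1 between the files and the 1-based ones are printed. No molecular identifiers are described, so how often a count repeats the same molecule is not known. The median receptor peak has 8.0 to 28.0 counts per library.

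The ages were compared with edgeR 4.0.16 (R 4.3.3) by its robust quasi-likelihood F test, with TMM factors, the filterByExpr filter (minimum count 10) and age as the only term, fitted on all peaks, on counts summed per nearest gene and on counts summed per 1 Mb window. Calls were made at a Benjamini-Hochberg adjusted p under 0.05, log2 fold changes are aged over young, and CPM values use TMM-scaled library sizes. Sums over families and clusters have no test. Same-numbered libraries share a passage and, in the titles, a code, whereas the descriptions give all libraries 1 code. They were taken as pairs in the alternative fit with the replicate block, and the values given are from the fit without it unless the block is named. Within pairs, deviations from the mean of the age group correlated at r = 0.0738, 0.126 and 0.144, and for each library the best match was its own number. Alternatives were RLE factors, library totals, DESeq2 1.42.0 (adjusted p left as missing where it gives none), no filter, a minimum count of 30, the replicate block, thinning to young replicate 1, each library left out, and other member and cluster rules. The members, lists and tests were chosen with earlier results of these data known. Peaks named are all called ones, the 5 of highest level, the promoter-class peak of highest level per family and those of 4 receptors reported in the gut or sharing their locus. The promoter-class rule gives the Mprip peak for Olfr. Pathway genes named are those with the 3 smallest p-values, and any other gene or cluster, and the printed promoters, were chosen after their values were seen. Names were matched to RefSeq (GRCm38.p6), in which 299 of 303 receptor genes were found. No genome was used, so the sequence of a peak is shown only where a printed RefSeq promoter window overlaps it.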

Additional observations from a re-analysis of the deposited data

How the results depend on the processing

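With the replicate block, the lower calls numbered 14 peaks, 10 genes and 6 windows and the higher calls of windows 2, and the block ended none of the calls made without it. It raised the share called over all features as well. Restricting the members to peaks within 1 kb of a receptor start left 0 higher and 1 lower call and a median log2 fold change of -0.031, and Olfr peaks alone held 1 higher call, both from fewer peaks. Thinning to the depth of young replicate 1 left 1 lower window. With each library left out in turn, the lower calls ranged over 6 to 8 peaks, 3 to 6 genes and 1 to 4 windows, the higher calls over 2 to 3 peaks, 2 to 3 genes and 0 windows, and the median over the peaks over -0.09 to -0.05. The share called over all features was not computed for the thinned and left-out fits. Their counts therefore cannot be set against the rest of the genome. DESeq2 called 9 receptor peaks, 3 higher and 6 lower, against 0.734% of the peaks with an adjusted p. Leaving out peaks in another gene, an alternative chosen after seeing the data, kept 3 higher and 7 lower calls.

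Over all alternatives the adjusted p of the peaks that lost a call ranged over 0.00165 to 0.295 for Olfr658, 2.03e-06 to 0.309 for the first Olfr622 peak, 3.44e-06 to 0.0533 for the second Olfr109 peak and 9.52e-08 to 0.0572 for Vmn2r67, and that of the chromosome 17 window over 3.29e-06 to 0.125. The other 6 called peaks kept their call in all 13 alternatives. Uncalled peaks with fold changes near 0 changed sign. Olfr1423 was at 0.018 after thinning, and with each library left out in turn it ranged over -0.058 to 0.016 (above 0 without aged replicate 2), Vmn1r-ps92 over -0.13 to 0.028 (above 0 without young replicate 1), Olfr267 over -0.040 to 0.026 (above 0 without aged replicate 1, and 0.0038 without young replicate 3), Taar6 over -0.22 to 0.097 (above 0 without aged replicate 2 or young replicate 3) and Olfr544 over -0.11 to 0.31 (below 0 without aged replicate 3 or young replicate 2). The cause was not tested for any of these. Depth limits the receptor peaks most in young replicate 1.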
